A study of Mus musculus with 9 samples.

Results

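Bone morphogenetic protein (BMP) signalling in the liver was described here through 8 genes, which were chosen by name: the ligands Bmp2 and Bmp6, the receptor components Acvrl1, Eng and Bmpr2, the target genes Id1 and Id3, and the inhibitor Smad6. They are 8 of 27998 genes in the deposited table of single-cell RNA-seq counts. The table was made from whole livers of C57BL/6 mice treated with collagenase and holds 8562 cells in 9 libraries. Nothing in the sources used here says that the libraries of a group came from separate mice, so p-values measure the spread between these libraries, which may be in part technical. All mice carried ROSA26-rtTA-IRES-EGFP, a doxycycline-controlled transactivator, and all received doxycycline food. WT mice (2 libraries) had no YAP transgene and were fed doxycycline for 7 days. YAP3d (4 libraries) and YAP7d (3 libraries) mice carried tetYAP and were fed doxycycline for 3 and 7 days. The transgene lets doxycycline switch on the co-activator YAP, which the study gives as a constitutively active point mutant. WT and YAP3d, at 7 and 3 days, therefore also differed in the length of feeding. The study crossed these mice with Alb-CRE, which is active in hepatocytes, so the endothelial cells and macrophages described below were not the cells meant to carry the induction. The labels give no age.

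BMP ligands bind a complex of type I and type II receptors, which phosphorylates SMAD1 and SMAD5. With SMAD4 these switch on the Id genes, whose products hold back basic helix-loop-helix transcription factors, and the inhibitory SMADs, which damp the signal. In the liver the sinusoidal endothelium is the known source of BMP2 and BMP6, which act on hepatocytes to induce the iron hormone hepcidin (Hamp). Endothelial cells themselves answer BMP9 and BMP10 (Gdf2 and Bmp10) through ALK1 (Acvrl1), endoglin (Eng) and BMPR2.

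Cells were clustered and classes were named by the type whose markers they resembled. Of 8527 cells kept, 1948 were endothelial-like and 1046 macrophage-like, of which 606 were Kupffer-like, the resident macrophages of the liver. The endothelial-like label was checked on 12 endothelial markers, in the endothelial-like cells of WT against the cells of all groups outside the class. Kdr reached 1407 CPM (counts per 1000000) in the former and 14.4 CPM in the latter, and Ptprb reached 1824 and 11.8 CPM. Bmx went the other way, at 0.949 and 2.89 CPM, and the other 11 markers were higher in the class. Total counts of unique molecular identifiers (UMIs) per library ran from 1288940 to 25056881. Median UMIs per endothelial-like cell were 2317 to 4772 in the WT and YAP3d libraries and 7404 to 13760 in YAP7d. Endothelial-like cells made up 53.0 and 35.5% of cells in WT, 11.5 to 38.4% in YAP3d and 3.49 to 4.99% in YAP7d, so the YAP7d values rest on 24, 23 and 64 cells. Libraries also fell apart by the predicted gene Gm10709, which stood at 3.65 to 11.2 CPM in WT and in YAP3d replicates 3 and 4, and at 347 to 611 CPM in YAP3d replicates 1 and 2 and in YAP7d. The labels name both v2 and v3 reagent kits, and the methods give v2 for whole-liver libraries, so no source used here ties the split to a kit or a batch. WT lies wholly on 1 side of this split and YAP7d on the other, and YAP3d on both, so that only YAP3d lets a fit part the split from the groups. Results with such a term are given below. Of 8515 barcodes, 46 occurred in more than 1 library. Yap1, the induced gene, was at 15.7 and 11.04 CPM over all cells in WT, 5.29 to 12.9 in YAP3d and 1.52 to 5.53 in YAP7d. These values mix classes whose shares differed between groups. In endothelial-like cells Yap1 had means of 33.3 CPM in WT, 32.7 in YAP3d and 22.5 in YAP7d, with overlapping ranges. In hepatocyte-like cells Yap1 was at 22.2 to 80.5 CPM in 3 YAP3d libraries and 73.3 to 147 CPM in YAP7d, which overlapped. These rest on 42 and 61 cells, and the difference was not tested. The WT libraries had 2 and 1 such cells, too few for a level. Whether reads of the transgene were counted under Yap1 is not given in the sources used here, so the induction was not checked by it.

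For 5 of the 8 members RefSeq promoter sequence was at hand (GRCm38.p6, equal to the mm10 build of the files). The windows of the 4 receptor, target and inhibitor genes among them that were lower together in YAP7d endothelial-like cells are shown, from 230 bases before the start to 20 bases from it, on the strand of the gene, with capitals for motif matches. The motifs searched, on both strands, were GGCGCC and GTCTAGAC (SMAD elements that are their own reverse complements), GTCTG (the SMAD box, CAGAC on the other strand) and GGAATG (a TEAD element, CATTCC on the other strand). Smad6 is at chr9:64022040-64022289 (minus strand), Id3 at chr4:136143592-136143841, Bmpr2 at chr1:59764049-59764298 and Eng at chr2:32646365-32646614 (plus strand).
Smad6: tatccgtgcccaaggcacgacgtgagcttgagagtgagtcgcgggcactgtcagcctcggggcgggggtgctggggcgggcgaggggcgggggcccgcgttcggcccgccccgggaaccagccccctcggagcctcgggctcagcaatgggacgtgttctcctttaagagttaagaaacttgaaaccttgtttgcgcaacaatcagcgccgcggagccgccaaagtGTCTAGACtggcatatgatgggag
Id3: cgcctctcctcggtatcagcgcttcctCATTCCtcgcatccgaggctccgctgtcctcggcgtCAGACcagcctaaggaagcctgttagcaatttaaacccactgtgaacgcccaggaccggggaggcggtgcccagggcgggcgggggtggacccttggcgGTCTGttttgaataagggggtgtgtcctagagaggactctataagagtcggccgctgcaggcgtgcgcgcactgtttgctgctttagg
Bmpr2: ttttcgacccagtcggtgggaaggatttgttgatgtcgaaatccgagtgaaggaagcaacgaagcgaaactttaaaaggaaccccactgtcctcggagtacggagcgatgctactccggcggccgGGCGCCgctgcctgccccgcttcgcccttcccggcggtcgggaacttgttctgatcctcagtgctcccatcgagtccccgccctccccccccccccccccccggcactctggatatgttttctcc
Eng: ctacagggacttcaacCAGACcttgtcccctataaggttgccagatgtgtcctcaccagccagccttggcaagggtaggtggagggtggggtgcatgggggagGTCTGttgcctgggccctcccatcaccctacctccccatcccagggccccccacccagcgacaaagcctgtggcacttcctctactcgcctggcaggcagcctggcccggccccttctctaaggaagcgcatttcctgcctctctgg

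The Smad6 window held GTCTAGAC from -4 to 4, across the start that the promoter table uses. That start lies inside the gene, whose outer end RefSeq gives as 64022085, whereas the other windows begin from the outer end of their gene. This palindrome occurs in 70 of 32851 RefSeq promoters of 300 bases (0.213%). Bmpr2 held GGCGCC at -105 to -100, which 11.9% of promoters hold. Id3 held the SMAD box at -167 and at -68 and the TEAD element at -203, and Eng held the SMAD box at -214 and at -127. These are common matches: 49.6% of promoters hold the SMAD box and 14.7% the TEAD element. The Bmp6 promoter held the SMAD box at -119. Bmp2, Acvrl1 and Id1 had no window in this table. A match is a description of letters and not a measured site, since no binding data were used here.

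Across classes, ligand, co-receptor and inhibitor transcripts lay in endothelial-like cells and Id transcripts did not keep to them. Of all Bmp2 UMIs 95.7% were in endothelial-like cells, as were 92.5% of Eng, 80.2% of Smad6 and 71.2% of Bmpr2 UMIs. Of the 31 Bmp6 UMIs 29 were there. Of Id3 UMIs 33.4% were endothelial-like, of Acvrl1 24.3% and of Id1 18.2%, while macrophage-like cells held 57.7% of Id1 UMIs. These shares describe all libraries pooled and follow the number of cells of each class.

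Levels per class, taken over the libraries with at least 10 cells, gave the same picture without the cell numbers. Bmp2 had 1085 ± 270 CPM in endothelial-like cells (SD, n = 9 libraries), from 677 to 1454, and the next class, other macrophage-like cells, had 47.1 ± 74.7 CPM (n = 6) and at most 170 CPM. Eng had 1204 ± 300 CPM in endothelial-like cells, and its highest library in any other class, a neutrophil-like one, had 227 CPM. Bmpr2 had 186 ± 73.1 and Smad6 84.3 ± 32.2 CPM in endothelial-like cells, with lowest libraries of 76.9 and 44.6 CPM. The highest library of another class had 65.9 CPM of Bmpr2 (Kupffer-like) and 42.2 CPM of Smad6 (cholangiocyte-like, 5 UMIs in the 14 cells of its only WT library). For these 4 genes the endothelial-like libraries did not overlap those of any other named class with at least 10 cells.

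Id1, Id3 and Acvrl1 were ordered differently. Id1 was highest in Kupffer-like cells (351 ± 137 CPM, n = 9), followed by other macrophage-like (250 ± 114, n = 6) and endothelial-like cells (168 ± 43.9, n = 9), and these neighbours overlapped. Id3 had 1210 ± 399 CPM in endothelial-like and 1172 ± 405 CPM in Kupffer-like cells, which differed by less than the spread between libraries, then 724 ± 140 in other macrophage-like, 606 ± 152 in dendritic-like and 528 ± 60.7 CPM in monocyte-like cells. These means pool groups of different order. Kupffer-like Id3 was at 75.0 and 96.5% of the endothelial-like level of the same library in WT, 59.7 to 122% in YAP3d and 119 to 151% in YAP7d. Acvrl1, the type I receptor known from endothelium, had 62.4 ± 27.8 CPM in Kupffer-like, 57.7 ± 21.2 in dendritic-like, 42.6 ± 12.9 in other macrophage-like and 36.5 ± 12.3 CPM in endothelial-like cells, with overlapping ranges. Its order changed with the group: dendritic-like cells (78.6 CPM) stood beside Kupffer-like cells (76.8 CPM) in WT, and in YAP7d the only neutrophil-like library (55.0 CPM) stood above Kupffer-like cells (37.2 CPM). Lymphocyte classes were low in each of the 3 genes, with mean levels at or under 9.33 CPM for Id1, 70.4 CPM for Id3 and 6.22 CPM for Acvrl1. The map of mean levels by class shows the contrast between the columns of Bmp2 and Eng, bright in 1 row, and that of Id3, bright across the myeloid rows.

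**Figure D1:**
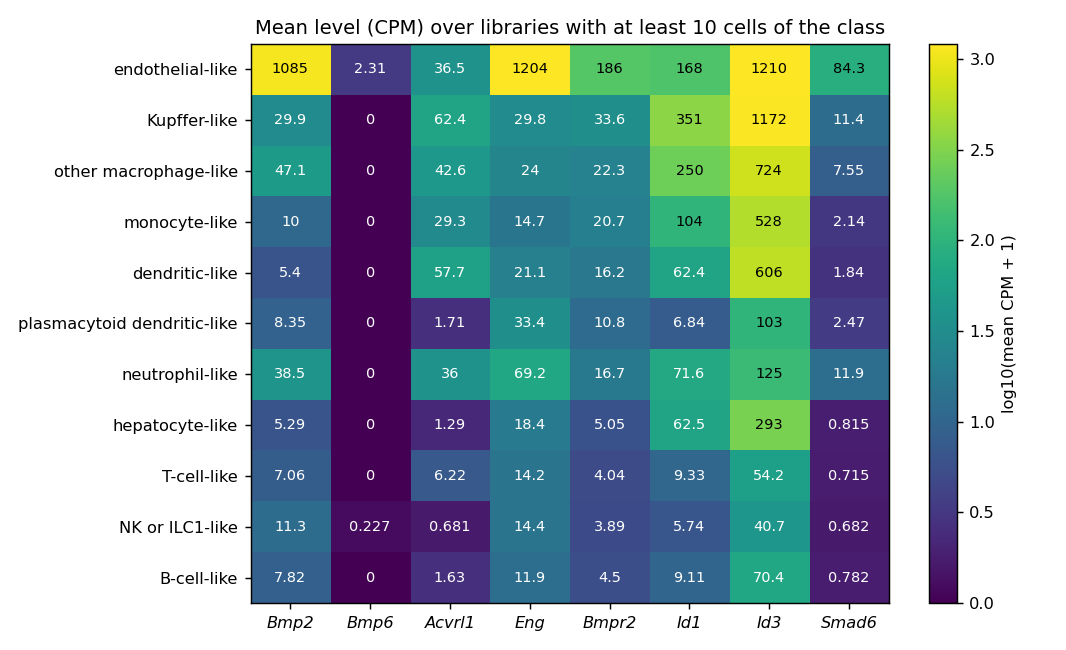
Mean level in CPM (number in each cell of the map) and its log10 (colour) for the 8 genes in 11 cell classes, over the libraries with at least 10 cells of the class. Bmp2, Eng, Bmpr2 and Smad6 are highest in endothelial-like cells, Id1 in Kupffer-like cells, and Id3 is at 1210 and 1172 CPM in these classes.

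Whether the endothelial BMP genes differed with YAP induction was asked on counts summed per library, with the quasi-likelihood test of edgeR over all genes. At 7 days the endothelial-like cells held less transcript of the ligand Bmp2, of the receptors Eng and Bmpr2, of the target Id3 and of the inhibitor Smad6 than those of WT, by log2 fold changes from -0.61 to -1.29. Id1 did not follow Id3: it stood at 201 ± 31.1 CPM in YAP7d and 162 ± 47.3 CPM in WT. At 3 days none of these genes passed the test against WT. Of the 8 members 7 passed the filter on low counts, and 5 were lower in YAP7d than in WT and none higher, where 18.4% of all 7467 genes tested were called, 8.72% lower and 9.71% higher. Of the same 7 members 5 were lower in YAP7d than in YAP3d (17.1% of genes called, 8.16% lower and 8.96% higher). These comparisons share the YAP7d libraries, and the members were chosen with earlier results of these data known, so the counts are descriptions. The median log2 fold change was -0.67 over the 7 members and -0.04 over all genes in YAP7d against WT.

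Bmp2, the ligand, had 1276 and 1107 CPM in WT, 1228, 1329, 1454 and 1081 CPM in YAP3d, and 677, 870 and 739 CPM in YAP7d. All YAP7d libraries lay under all WT and YAP3d libraries, which overlapped each other. The fitted log2 fold change was -0.61 (SE 0.161, edgeR adjusted p 0.0151) against WT and -0.68 (SE 0.140, edgeR adjusted p 0.00350) against YAP3d. Without WT replicate 1 the adjusted p against WT was 0.154, and without YAP7d replicate 1 it was 0.0715. Bmp6, the other ligand that sinusoidal cells are known for, was too low for a test: it had 2 and 6 UMIs in WT, 1, 0, 4 and 15 in YAP3d and 0, 0 and 1 in YAP7d. At this depth a difference in Bmp6 was not detectable. The ligands of ALK1 were near 0 in this class, with 2 UMIs of Gdf2 and 0 of Bmp10 in all endothelial-like cells. The 23 stellate or fibroblast-like cells, 1 of them in YAP7d, were too few for a comparison. The 10 such cells of YAP3d replicate 4 held 1 UMI of each ligand.

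**Figure D2:**
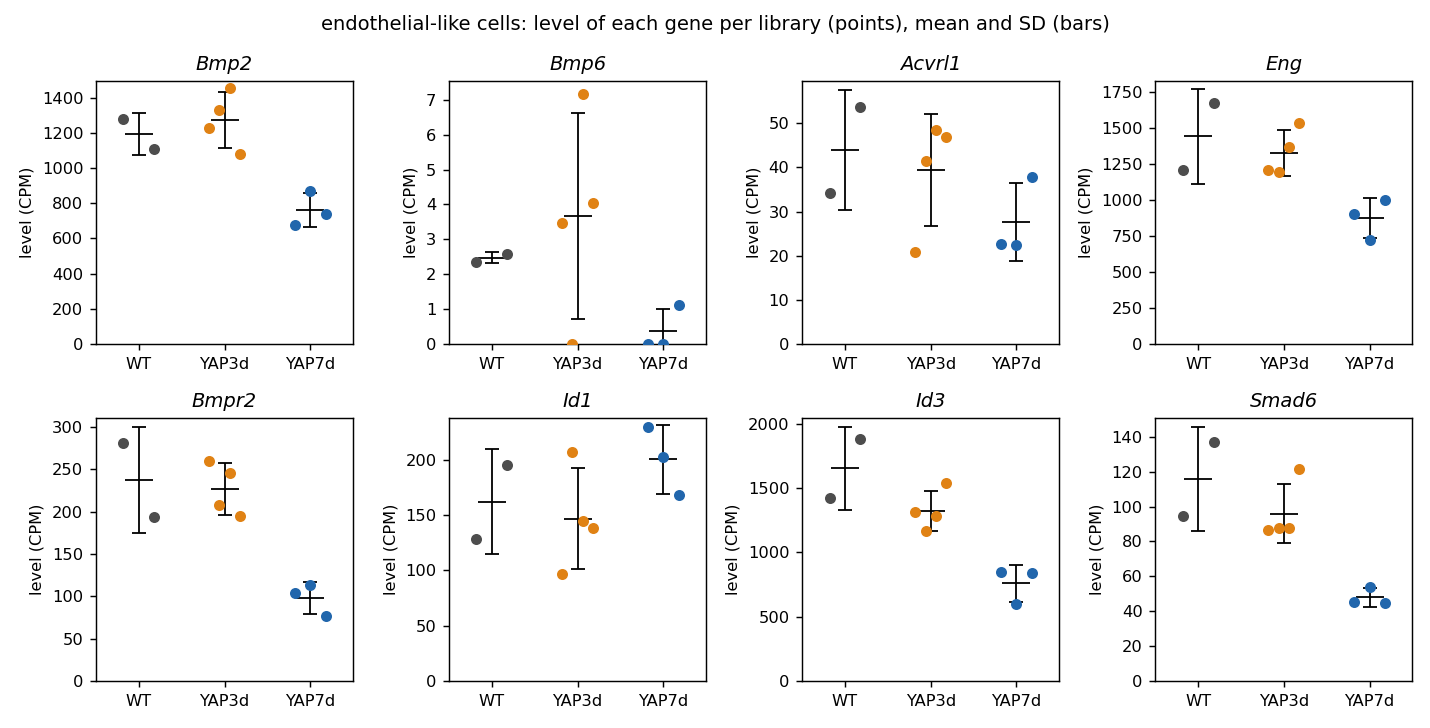
Level in CPM of each gene in endothelial-like cells of every library (points, coloured by group), with the mean and SD of the group (bars); each vertical axis starts at 0. The 3 YAP7d points lie under all others for Bmp2, Eng, Bmpr2, Id3 and Smad6, but not for Id1 and Acvrl1.

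Eng, the co-receptor of ALK1, had 1212 and 1679 CPM in WT, 1211, 1195, 1368 and 1537 CPM in YAP3d, and 903, 726 and 1004 CPM in YAP7d. YAP7d lay under the other groups, which overlapped each other, and its log2 fold change was -0.67 against WT (SE 0.191, edgeR adjusted p 0.0229) and -0.54 against YAP3d (SE 0.166, edgeR adjusted p 0.0360). On leaving out 1 library the Eng value ran from -0.87 to -0.41 against WT and from -0.66 to -0.36 against YAP3d. The call against WT was lost without YAP7d replicate 1 (edgeR adjusted p 0.0667) or 2 (0.107), and without WT replicate 2, which left 1 WT library. The call against YAP3d was lost without YAP3d replicate 1 (0.0607), 3 (0.0772) or 4 (0.102) or without YAP7d replicate 1 (0.107) or 2 (0.191). Bmpr2, the type II receptor shared by BMP ligands, had 281 and 193 CPM in WT, 260, 208, 245 and 194 CPM in YAP3d, and 104, 113 and 76.9 CPM in YAP7d. It lay under both other groups, by -1.29 against WT (SE 0.233, edgeR adjusted p 0.00118) and -1.21 against YAP3d (SE 0.213, edgeR adjusted p 0.00117), and both calls held on leaving out any 1 library. Acvrl1 had 34.3 and 53.6 CPM in WT, 20.8 to 48.4 CPM in YAP3d and 22.6, 22.5 and 37.9 CPM in YAP7d, so all groups overlapped. Its log2 fold change of -0.49 against WT did not pass (SE 0.357, edgeR adjusted p 0.381).

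Among the target genes, Id3 had 1424 and 1883 CPM in WT, 1315, 1163, 1286 and 1537 CPM in YAP3d, and 849, 595 and 838 CPM in YAP7d. YAP7d lay under both other groups without overlap, with log2 fold changes of -1.08 against WT (SE 0.191, edgeR adjusted p 0.00106) and -0.74 against YAP3d (SE 0.167, edgeR adjusted p 0.00655), and both calls held on leaving out any 1 library. Id1 had 129 and 196 CPM in WT, 97.1, 208, 145 and 138 CPM in YAP3d, and 230, 203 and 168 CPM in YAP7d. Its groups overlapped, and the log2 fold change was 0.29 against WT (SE 0.255, edgeR adjusted p 0.471) and 0.50 against YAP3d (SE 0.228, edgeR adjusted p 0.151). Smad6, which blocks BMP receptors and is itself a BMP target, had 94.6 and 137 CPM in WT, 86.7, 87.7, 87.7 and 121 CPM in YAP3d, and 45.2, 54.1 and 44.6 CPM in YAP7d. It was lower without overlap, by -1.27 against WT (SE 0.267, edgeR adjusted p 0.00372) and by -1.03 against YAP3d (SE 0.251, edgeR adjusted p 0.0107). Without WT replicate 2 its adjusted p against WT was 0.0702, and against YAP3d it was 0.0543 without YAP3d replicate 4 and 0.0658 without YAP7d replicate 3.

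Between YAP3d and WT edgeR called 0 members and 0 genes of 7467 (0% of genes), with 144 genes at an unadjusted p under 0.05, and DESeq2 also called 0. The log2 fold changes of the 7 members were between -0.34 (Id3, SE 0.178) and 0.07 (Bmp2, SE 0.152). The plot of fitted changes sets the 3 comparisons side by side for each gene.

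**Figure D3:**
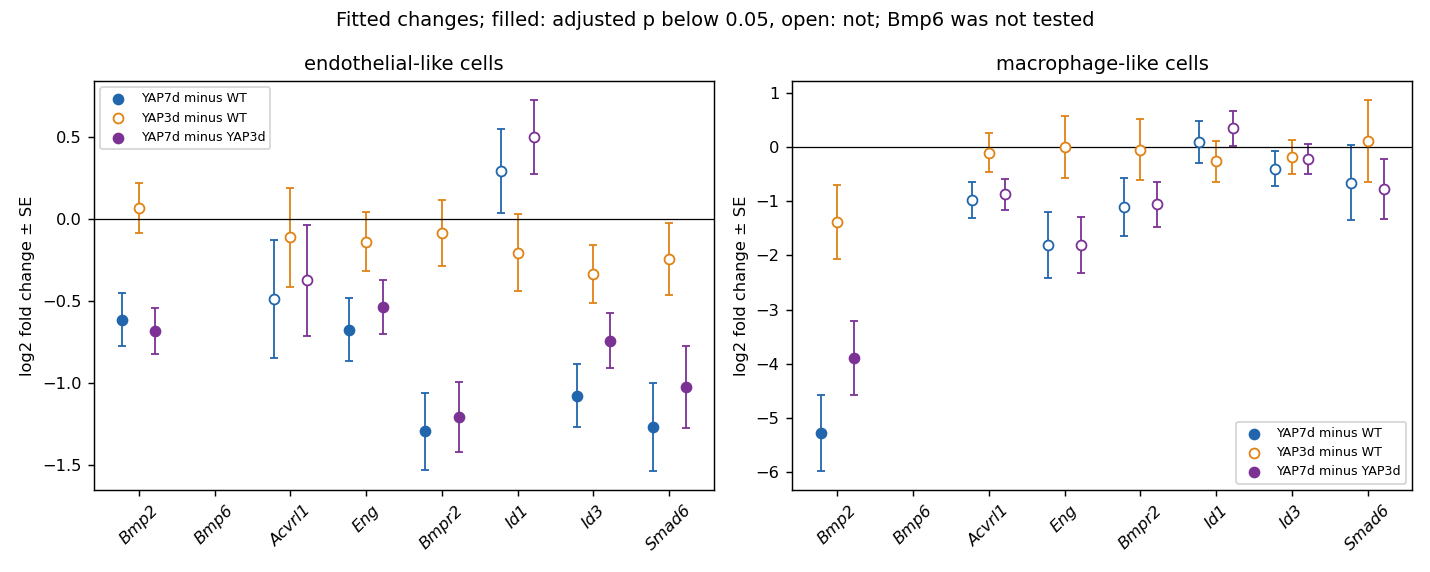
Fitted log2 fold change with its SE for each gene in endothelial-like (left) and macrophage-like cells (right), for the 3 comparisons of groups; the vertical scales of the panels differ. Filled points passed an edgeR adjusted p of 0.05: Bmp2, Eng, Bmpr2, Id3 and Smad6 on the left and Bmp2 alone on the right, each lower in YAP7d.

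Several measures moved with these differences. Of the 111 YAP7d endothelial-like cells 93 were in clusters 29 and 30, led by Ccl21a, Mmrn1, Ly6c1 and Mki67 and by Chil3, Tnfrsf12a and Ccl2, with Gm10709 among the 10 leading genes of both, which held 2 WT and 7 YAP3d cells. The summed cell cycle genes stood at 2627 and 3272 CPM in WT, 3052 to 4491 CPM in YAP3d and 6890 to 8960 CPM in YAP7d, and 36 of 39 tested cell cycle genes rose in YAP7d against WT. Of 11 tested endothelial markers 7 fell, among them Clec4g (log2 fold change -2.13), Ptprb (-2.34) and Kdr, the VEGF receptor 2 (-0.95), whereas Cdh5 (0.04), Flt4 (0.07), Egfl7 (0.09) and Pecam1 (0.14) did not pass. Of markers of periportal sinusoidal cells 6 of 8 tested were lower (median -1.29) and of pericentral sinusoidal cells 3 of 7 (median -1.02), while 2 of 4 tested markers of larger vessels were higher (median 0.89). Clusters 29 and 30 had 3 and 4 of 10 vessel markers raised, 0 and 2 of 8 pericentral markers and no periportal marker. Heat shock and early response genes stood at 11501 and 14535 CPM in WT, 10258 to 12804 CPM in YAP3d and 5400 to 6119 CPM in YAP7d. The summed macrophage markers in these cells were at 6667 and 8785 CPM in WT, 4624 to 7465 CPM in YAP3d and 2416 to 2650 CPM in YAP7d, with 2 of 10 tested lower and none higher. The median log2 fold change of these 10 was 0.78, so the sum and the median went opposite ways. Markers of stellate cells or fibroblasts were at 115 and 155, 125 to 250 and 22.6 to 40.6 CPM, with 3 of 3 tested lower. Among other lists, 2 of 4 tested dendritic markers (median 1.19), 1 of 3 monocyte markers (median 1.33) and 1 of 4 neutrophil markers (median 1.89) were higher and none lower, while 1 was higher and 1 lower of 9 Kupffer markers (median 0.11) and of 4 plasma cell markers (median -0.35). The part of these measures in the members' differences was not tested, apart from the values that follow.

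With only cells free of UMIs of 10 mitosis genes, counted without thinning, 9, 8 and 13 YAP7d cells were left, so that YAP7d entered with replicate 3 alone, assumed to vary like the other groups, and no member was called, with Bmpr2 nearest (-1.76, edgeR adjusted p 0.0549). Pooled over the 30 YAP7d cells, Bmp2 was at 862 CPM (95% Poisson interval 754 to 981) and at 1150 CPM in the like cells of WT (1110 to 1190). Id3 was at 847 (740 to 965) and 1766 CPM (1717 to 1816), Bmpr2 at 89.98 (57.7 to 134) and 218 CPM (201 to 236), and Id1 at 236 (182 to 302) and 179 CPM (164 to 195). Such intervals cover counting error only and not the spread between libraries. In these pooled cells Bmp2, Bmpr2 and Id3 thus stood lower in YAP7d as they did in all endothelial-like cells.

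The 18 YAP7d cells outside clusters 29 and 30 were also read on their own. There Bmp2 was at 689 CPM (546 to 857) and 1154 CPM in WT (1116 to 1192), and Eng at 706 (561 to 876) and 1554 CPM (1511 to 1598). Bmpr2, however, was at 224 CPM (146 to 328) in YAP7d and 217 CPM (201 to 234) in WT, and within clusters 29 and 30 it was at 74.3 CPM (59.8 to 91.3) in the 93 YAP7d cells. Bmp2 was at 756 CPM (708 to 807) inside them. The 18 cells came from all 3 YAP7d libraries, with fewer than 10 in each and 9 of them in cluster 4, the shallowest, so these pooled values have counting intervals only and a difference between the clusters was not tested over libraries. Over all groups Bmp2 and Eng were at 724 and 993 CPM in cluster 4, 1278 and 1621 CPM in cluster 5, and 975 and 1319 CPM in cluster 9. WT had 148, 344 and 266 cells in these clusters, so its make-up differed from that of the 18 cells. The part of this make-up in the values was not tested. In the 18 cells Id3 was at 1343 CPM (1141 to 1571), against 1761 CPM (1715 to 1808) in WT and 748 CPM (700.5 to 798) in the YAP7d cells of clusters 29 and 30. Smad6 was at 77.5 CPM (35.4 to 147) there, 126 CPM (114 to 139) in WT and 43.3 CPM (32.4 to 56.6) in the clusters, so its interval outside them reached the WT level.

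A term for the libraries with Gm10709 left Bmpr2 past the threshold against WT (-1.37, edgeR adjusted p 0.0469) and lost Bmp2 (-0.59, 0.243), Eng (-0.36, 0.573), Id3 (-0.85, 0.139) and Smad6 (-0.92, 0.2695). Within the libraries that hold Gm10709, 3 YAP7d against 2 YAP3d, Bmp2 (-0.69, edgeR adjusted p 0.0158), Bmpr2 (-1.27, 0.00469) and Id3 (-0.64, 0.0392) passed, while Eng (-0.38, 0.189) and Smad6 (-0.82, 0.108) did not. With each cell thinned to 1500 UMIs, which left 2248 genes to test, Eng (-0.60, edgeR adjusted p 0.0383) and Id3 (-0.99, 0.00299) passed against WT, and Bmp2 (-0.54, 0.0689), Bmpr2 (-0.68, 0.239) and Smad6 (-0.997, 0.249) did not. Each of these values is negative, as in the full fit.

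Of a wider list of 70 BMP pathway genes, 28 could be tested in endothelial-like cells. In YAP7d against WT 8 were lower, none was higher and 20 did not pass, with a median log2 fold change of -0.57, where 8.72% of all genes were lower. Beside the members, 3 of 21 tested genes fell, 14.3% against the same 8.72%, with a median of -0.37. Smad7, the other inhibitory SMAD, was at 39.0 ± 15.9 CPM in YAP7d and 118 ± 1.26 CPM in WT (log2 fold change -1.53, edgeR adjusted p 0.00188). Crim1, which binds and retains BMPs, was at 79.0 ± 3.79 and 167 ± 28.5 CPM (-1.04, edgeR adjusted p 0.00241), and Id2 at 160 ± 29.4 and 275 ± 71.5 CPM (-0.72, edgeR adjusted p 0.0328). Against YAP3d, Smad7 (-1.19, edgeR adjusted p 0.00772), Crim1 (-0.92, 0.00375), the co-receptor Tgfbr3 (-0.93, 0.0245) and the ubiquitin ligase Smurf2 (-1.03, 0.0271) were lower.

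By role, 1 of 1 tested ligand, 2 of 6 receptors, 3 of 4 antagonists and 2 of 6 targets were lower in YAP7d than in WT, and 0 of 8 SMADs and turnover genes and 0 of 3 Id partners. Smad1 (-0.09), Smad5 (0.44) and Smad4 (-0.37), which carry the signal, did not pass, nor did Id4 (-0.16) or Nos3, the endothelial nitric oxide synthase (0.50). Between YAP3d and WT 0 of 28 passed with edgeR.

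The genes most like each member over the 9 endothelial-like libraries were found by Pearson's r of log2 CPM among about 3266 genes with a mean of at least 50 CPM. Bmpr2 was most like Lama4 (r 0.991) and Mrc1 (0.985), Id3 like Crebbp (0.985) and Dhrs3 (0.981), and Bmp2 like Tshz2 (0.981) and Man2a1 (0.976). Smad6 was most like Tspan7 (0.975) and Ushbp1 (0.975), and Eng like Ctnnd1 (0.976) and the member Id3 (0.963). For Acvrl1 they were Derl1 (0.969) and Sqstm1 (0.934), and for Id1 Bloc1s4 (0.946) and Cpsf6 (0.910). The libraries share group, depth and cell cycle state, so these values are descriptions.

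In macrophage-like cells, the differences of Id1 and Id3 between groups did not pass the test. Id1 was at 191 and 401 CPM in WT, 344, 289, 220 and 261 CPM in YAP3d, and 544, 265 and 228 CPM in YAP7d, with overlap throughout (YAP7d against WT, log2 fold change 0.09, SE 0.385, edgeR adjusted p 0.949). Id3 was at 1071 and 1307 CPM, 1481, 641, 962 and 1355 CPM, and 999, 864 and 895 CPM, so that YAP7d lay under WT but within the range of YAP3d, and its log2 fold change of -0.40 against WT did not pass (SE 0.330, edgeR adjusted p 0.570). Of the 7 members tested, only Bmp2 was called in YAP7d against WT and against YAP3d, where 1.88% of 7272 genes were called (1.51% lower, 0.371% higher) and 0.605% (0.523% lower, 0.0825% higher). In YAP3d against WT edgeR called 1 gene (0.0138%), the haemoglobin gene Hba-a1, and 0 members, with 264 genes at an unadjusted p under 0.05 and 1 gene called by DESeq2.

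**Figure D4:**
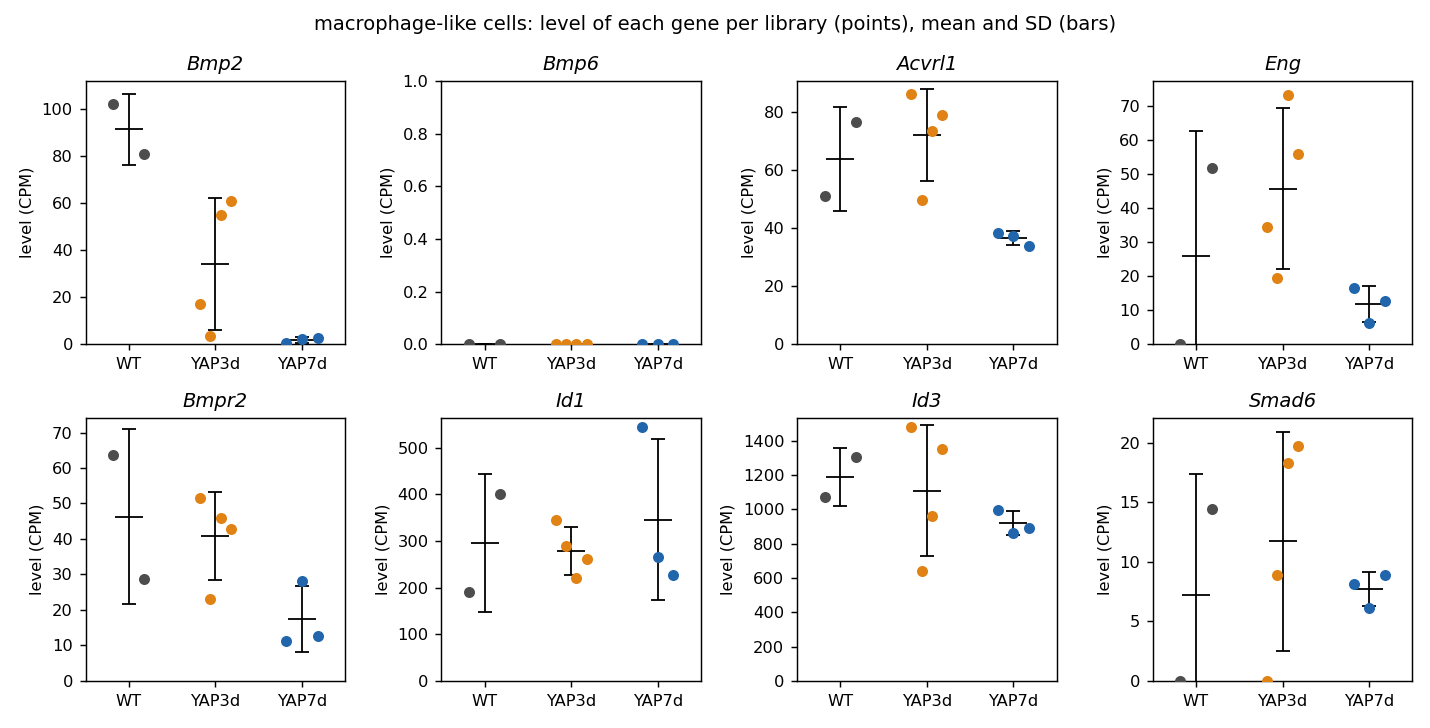
Level in CPM of each gene in macrophage-like cells of every library (points, coloured by group), with the mean and SD of the group (bars); each vertical axis starts at 0. Id1 overlaps between all groups, Id3 between YAP7d and YAP3d, Bmp2 is at 0.451 to 2.79 CPM in YAP7d and 80.7 and 102 CPM in WT, and Bmp6 is 0 in every library.

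None of the receptors passed in macrophage-like cells. Acvrl1 was at 51.0 and 76.4 CPM in WT, 49.7 to 86.1 CPM in YAP3d and 33.8 to 38.3 CPM in YAP7d, which lay under both other groups (log2 fold change -0.98, SE 0.340, edgeR adjusted p 0.141 against WT). In Kupffer-like cells alone Acvrl1 was at 52.7 and 100.9 CPM in WT, 41.5 to 98.2 CPM in YAP3d and 35.7 to 38.1 CPM in YAP7d. The class drew on different clusters: cluster 16 of the Kupffer-like cells had 51 WT, 67 YAP3d and 0 YAP7d cells and cluster 18 had 32, 75 and 381, while cluster 23 of the other macrophage-like cells had 11, 28 and 379, and cluster 24 had 15, 6 and 1. In cluster 18 alone, which left WT with replicate 1, the fitted Acvrl1 value was 1.14 (edgeR adjusted p 0.688). Without YAP3d replicate 2, macrophage-like Acvrl1 (-1.10, edgeR adjusted p 0.0320) and Eng (-2.23, 0.0193) passed against YAP3d. Eng was at 0 and 51.9 CPM in WT, 19.5 to 73.3 CPM in YAP3d and 6.14 to 16.7 CPM in YAP7d (-1.81, SE 0.603, edgeR adjusted p 0.128 against WT), so YAP7d lay between the WT libraries. With no filter on low counts Eng passed against WT (-1.64, edgeR adjusted p 0.0174). Its direction against WT rested on WT replicate 2, without which the WT arm was at 0 and no fold can be given. Bmpr2 was at 28.8 and 63.8, 23.1 to 51.7 and 11.3 to 28.0 CPM (-1.11, edgeR adjusted p 0.293). Smad6 stayed under 20 CPM in every library, at 0 and 14.4 CPM in WT and 6.14 to 8.92 CPM in YAP7d, which lay between the WT libraries. The fitted Smad6 value of -0.65 against WT (edgeR adjusted p 0.672) rested on WT replicate 2, so its direction is not settled.

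Bmp2 in macrophage-like cells was at 102 and 80.7 CPM in WT, 17.2, 3.55, 55.0 and 60.9 CPM in YAP3d, and 0.451, 2.30 and 2.79 CPM in YAP7d. The YAP7d libraries lay under all others, with a log2 fold change of -5.28 against WT (SE 0.707, edgeR adjusted p 0.000515) and -3.90 against YAP3d (SE 0.682, edgeR adjusted p 0.0155). The YAP3d libraries lay under WT too, but their change of -1.38 did not pass (SE 0.679, edgeR adjusted p 0.9995). The counts behind it were small: 64 UMIs in 18 of 109 cells in WT, 46 UMIs in 26 of 176 cells in YAP3d and 33 UMIs in 28 of 761 cells in YAP7d, whose median depth per library was 9132 to 22233 UMIs a cell against 1688 to 7593 in the other libraries. Few cells held most of them in WT and YAP3d, as single cells held up to 17 and 15 UMIs against 3 in YAP7d. Of the 56 UMIs of WT replicate 2, 49 were in 24 macrophage-like cells that were not Kupffer-like, and WT replicate 1 had 2 such cells without any.

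The Bmp2 call in macrophage-like cells depended on which cells and libraries entered. On leaving out 1 library the log2 fold change against WT ran from -5.86 to -4.99. The call was lost without WT replicate 2, which left WT with 1 library. With Kupffer-like cells alone the log2 fold change was -3.63 (edgeR adjusted p 0.0617), and with a term for Gm10709 it was -1.68 (1.0). Against YAP3d the call was lost without YAP3d replicate 1 (0.0571) and without YAP3d replicate 4 (-2.64, 0.520). In cells without a UMI of 5 endothelial genes, Bmp2 was too low for a test.

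Endothelial markers moved alongside Bmp2 in these cells. Their summed level in macrophage-like cells was 893 and 712 CPM in WT, 258 to 885 CPM in YAP3d and 144 to 228 CPM in YAP7d, and 6 of 9 tested markers were lower in YAP7d than in WT, with a median log2 fold change of -2.94. In the same comparison 7 of 44 cell cycle genes were higher (median 2.07) and 2 of 22 heat shock and early response genes lower (median -1.11), and of 10 tested monocyte markers 1 was higher and 1 lower (median 0.81). None was higher and 1 was lower of 2 tested stellate or fibroblast markers (median -2.20), of 4 B cell markers (median -1.19), of 5 plasma cell markers (median -0.43), of 6 neutrophil markers (median 1.38) and of 12 macrophage markers (median -0.86). Bmp2 counts amounted to 11.4 and 11.3% of the endothelial marker counts in WT macrophage-like cells and to 8.58 and 6.71% in the endothelial-like cells of the same libraries. In the non-Kupffer macrophage-like cells of WT replicate 2 and YAP3d replicate 4 they amounted to 44.1 and 22.1%, and in YAP7d macrophage-like cells to 0.232, 1.01 and 1.94%. In T-cell-like cells, which are not known for Bmp2, it was at 23.7 and 14.3 CPM in WT, 0, 0, 5.80 and 18.1 CPM in YAP3d and 0, 0 and 1.66 CPM in YAP7d. YAP3d thus overlapped both other groups, the WT values rest on 15 UMIs in 216 cells, and Bmp2 was not tested in that class. The part of these measures, of free RNA and of mixed droplets in the macrophage value was not tested.

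The change of Bmp2 differed between the 2 classes: the log2 fold change in endothelial-like cells minus that in macrophage-like cells was 4.78 (SE 0.596, edgeR adjusted p 1.36e-07), where 1.76% of 8849 genes were called, and 2.93 (adjusted p 0.0139) with Kupffer-like cells alone. Its macrophage-like arm set cells of different clusters against each other: cluster 23 had 11 WT and 379 YAP7d cells and cluster 24 had 15 and 1. The difference was not refitted without WT replicate 2 or with the Gm10709 term, each of which lost the macrophage-like call. For the other members the difference was not called, with values from -0.71 (Id3, SE 0.355, edgeR adjusted p 0.513) to 1.10 (Eng, SE 0.520, edgeR adjusted p 0.455). The fall of Id3 in endothelial-like cells was therefore not shown to differ from its change in macrophage-like cells. In T-cell-like cells only Eng and Id3 and in B-cell-like cells only Id3 could be tested, and none was called, with 0% of 3741 and 0.0448% of 2230 genes called in YAP7d against WT. There edgeR called 0 genes in T-cell-like cells, with 139 at an unadjusted p under 0.05.

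The share of each transcript held by a class was set beside the make-up of the libraries. Over all cells Bmp2 was at 572 and 367 CPM in WT, 96.8 to 485 CPM in YAP3d and 27.0, 48.1 and 28.5 CPM in YAP7d, and endothelial-like cells held 93.0 to 98.4% of it in every library. Beside this, endothelial-like cells were 53.0 and 35.5% of cells in WT and 3.49 to 4.99% in YAP7d, and the level of Bmp2 within the class was 1191 ± 119 CPM in WT (SD, n = 2) and 762.2 ± 98.5 CPM in YAP7d (n = 3). For Id1, endothelial-like cells held 80.1 and 45.1% of its UMIs in WT, 11.6 to 57.9% in YAP3d and 3.47, 5.94 and 4.70% in YAP7d, while macrophage-like cells held 11.03 and 27.7, 17.0 to 42.1, and 82.2, 91.0 and 66.0%. Its level over all cells was 71.0 and 137 CPM in WT, 54.3 to 128 CPM in YAP3d and 257, 182 and 128 CPM in YAP7d. For Id3 the endothelial-like share was 82.8 and 69.5% in WT and 4.69 to 5.51% in YAP7d, at levels over all cells of 759 and 855 CPM and of 597, 660 and 640 CPM. Macrophage-like cells were 5.76 and 5.58% of cells in WT, 3.33 to 11.8% in YAP3d and 22.2 to 45.3% in YAP7d.

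**Figure D5:**
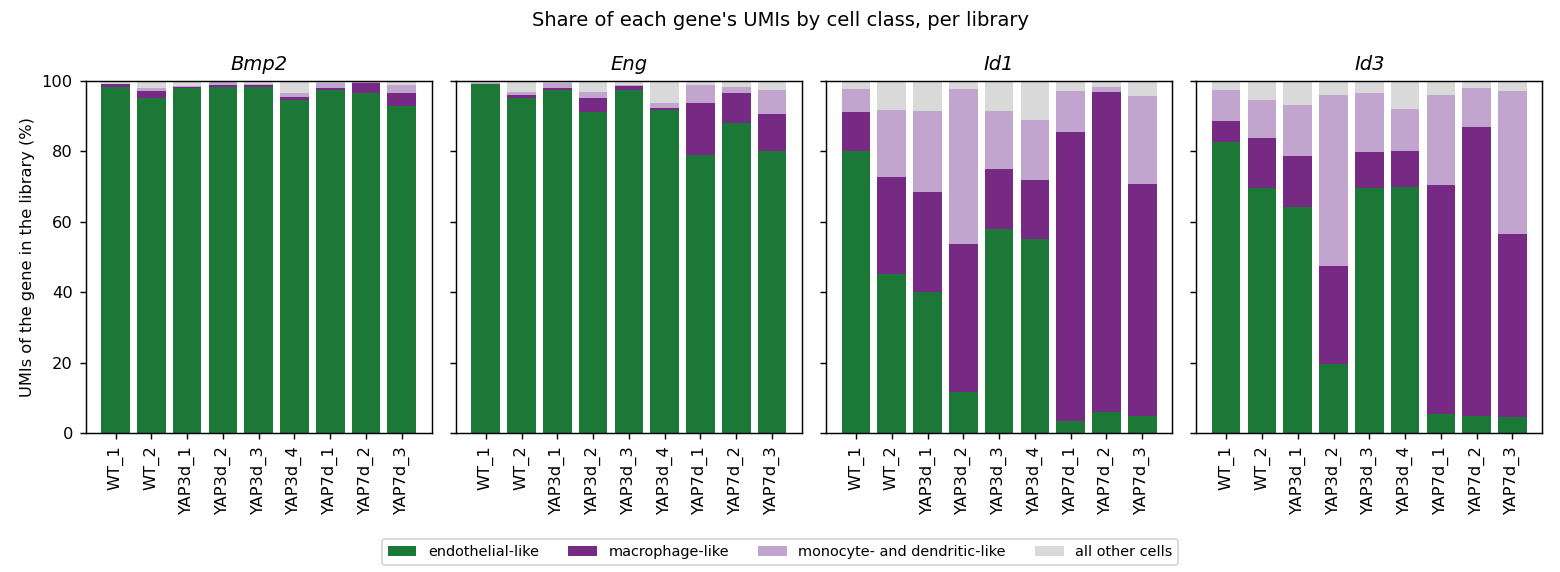
Share of the UMIs of Bmp2, Eng, Id1 and Id3 that lay in endothelial-like, macrophage-like, monocyte- and dendritic-like and all other cells, as stacked bars for each library. Bmp2 stays in endothelial-like cells in every library (93.0 to 98.4%), while most Id1 lies in macrophage-like cells in YAP7d (66.0 to 91.0%).

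Hamp, the hepatocyte gene that BMP signalling is known to induce, was measured in few hepatocyte-like cells. It was at 1489 to 3705 CPM in the YAP3d libraries and 2024, 3948 and 6760 CPM in YAP7d, which overlapped, in 9 to 18 and 11 to 28 cells. WT had 3 hepatocyte-like cells in all, with 26 UMIs of Hamp, so no comparison with WT was made. In the hepatocyte-like cells of the 6 libraries with at least 10 of them, Id3 was at 293 ± 62.6 CPM and Id1 at 62.5 ± 31.9 CPM (SD).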

How the data were processed

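Liver cells were profiled by droplet-based 3' single-cell RNA-seq in 9 libraries. The authors aligned reads to mm10 and counted them with Cell Ranger, whose use, with Seurat 2, the submitters' processing notes list. The deposited values are raw counts of UMIs per gene and cell, and each cell name gives its library. The members and gene lists were chosen with earlier results of these data known, so counts over them are descriptions. Every named gene comes from the member list, from the pathway list (at most the 5 largest rises and 5 largest falls with an adjusted p under 0.05 per class and comparison) or from the likeness measure (the 2 most like genes per member), and Yap1 was named whatever its value. Pathway genes that did not pass, Hamp, Gdf2, Bmp10, Hba-a1, Gm10709, the genes that lead clusters and the markers with values were named after their values were seen.

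Cells with under 200 genes were left out (35 of 8562). Counts were scaled to 10000 per cell, log-transformed and clustered with scanpy 1.11.5 on 30 principal components and 15 neighbours (Leiden, resolution 1.0, seed 0) without genes that correlated above 0.4 with the cell cycle. Of 25 clusters, 2 were split again, which gave 31, and clusters were named from markers when at least 3 were raised, while 829 cells stayed unnamed. Scrublet, run per library, called 60 doublets (0.704%), which were kept. Raw counts were summed per library and class, with at least 10 cells, and CPM values are per 1000000 counts of that sum.

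Sums of all 9 libraries were fitted together in edgeR 4.0.16 (R 4.3.3), with filterByExpr, TMM factors, a quasi-likelihood test, Benjamini-Hochberg adjustment over all genes and a threshold of 0.05. DESeq2 1.42.0 was the second tool. The difference between classes was an interaction term in the same kind of fit, with library as a block, since both classes came from the same libraries. Intervals of pooled CPM are exact Poisson intervals at 95%. Libraries, and not cells, are the replicates. Figures were drawn with matplotlib 3.10.9.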

Additional observations from a re-analysis of the deposited data

Results flagged for a closer look

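Smad6 in endothelial-like cells of YAP3d replicate 4 was far from the other YAP3d libraries, at 121 CPM against 86.7, 87.7 and 87.7 CPM (gap over range 0.971, above the critical value of 0.829 for 4 libraries). This library had the most endothelial-like cells, 771. Of 15 sets of 4 libraries examined 1 was marked in this way, and chance marks about 1 in 20.

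The YAP7d against WT change of Bmp2 differed between classes: the log2 fold change in endothelial-like cells minus that in macrophage-like cells was 4.78 (SE 0.596, edgeR adjusted p 1.36e-07), and 2.93 with Kupffer-like cells alone. Bmp2 was lower in 3 of 3 YAP7d libraries than in either WT library in both classes. The macrophage-like value rests on 64 UMIs in WT and 33 in YAP7d. The difference was not refitted on leaving out libraries or with the Gm10709 term.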

How the results depend on the processing

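Of 13 member results past the threshold, 195 of 246 alternatives kept the call, 51 lost it and 0 turned the direction, and 6 alternatives gained a call for results not past it. In endothelial-like cells DESeq2 called 975, 0 and 931 genes (YAP7d against WT, YAP3d against WT, YAP7d against YAP3d; 1376, 0 and 1278 with edgeR) and 5, 0 and 5 members. Leaving out 1 library gave 660 to 1390, 0 to 7 and 699 to 1283 genes and 3 to 5, 0 and 3 to 5 members. The first count moved by over 1.5 times without WT replicate 1 (660), WT replicate 2 (802) and YAP7d replicate 3 (867), and the last without YAP7d replicate 3 (699). A Gm10709 term gave 233 and 460 genes and 1 and 2 members for the comparisons with YAP7d, thinning 396 and 321 genes and 2 and 1 members, and cells without mitosis UMIs (chosen after seeing the data) 182 and 157 genes and 0 members. Within 1 Gm10709 state (also chosen after) 513 genes and 3 members were called against YAP3d. No filter on low counts gave 40 genes in YAP3d against WT. The cause of these shifts was not tested, except that thinning left fewer genes to test and the mitosis setting 1 YAP7d library.

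In macrophage-like cells edgeR called 137, 1 and 44 genes and 1, 0 and 1 members, and DESeq2 125, 1 and 48 genes. Leaving out 1 library gave 1 to 446, 0 to 2 and 6 to 430 genes and 0 to 1, 0 and 0 to 3 members. The first count was 1 without WT replicate 2, 91, 446 and 308 without YAP3d replicates 1, 2 and 4, and 90 and 77 without YAP7d replicates 1 and 2, and the last moved by over 1.5 times without any YAP3d or YAP7d library. No filter gave 647, 36 and 330 genes and 2 members in both YAP7d comparisons, only the groups compared 405, 0 and 13 genes, the Gm10709 term 0, 0 and 5 genes and 0 members, thinning 52, 0 and 24 genes and 0 members, and cells without 5 endothelial genes 1, 0 and 14 genes and 0 members. The cell filter gave 0 genes in YAP3d against WT and 9 genes and 0 members against YAP3d, 1 Gm10709 state 0 and 12 genes and 0 members, Kupffer-like cells 0 members in both, and the Kupffer-like cluster with cells of all groups (chosen after seeing the data) 16, 6 and 18 genes and 0 members against YAP3d. Cell filter and thinning dropped YAP3d replicate 1 (8 cells), the endothelial-free cells WT replicate 2 and YAP3d replicate 1, and the Kupffer-like cluster WT replicate 2 and YAP3d replicates 1 and 4.

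A replicate block used the replicate numbers of the labels, which nothing ties to a shared litter or day. Same-numbered libraries did not deviate together (correlations of -0.204 to 0.129). With the block, endothelial-like cells had 16 genes in YAP3d against WT and 3 members against YAP3d, without Eng (adjusted p 0.0793) and Smad6 (0.0627). Macrophage-like cells had 323, 47 and 19 genes and 2, 1 and 0 members: Eng passed against WT at 7 days (-2.32, adjusted p 0.0305), Bmp2 passed at 3 days (-3.33, 0.02004), and Bmp2 was lost against YAP3d (-3.10, 0.122). Cells with at most 2 cell cycle UMIs included none of YAP7d, so that setting gave no YAP7d value. The number of YAP7d endothelial-like cells, 111 in 3 libraries, limits the precision.

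Among the 45 member results that did not pass, 71 alternatives turned the direction, none of them past the threshold, so these directions are not settled. In macrophage-like cells the values of Eng and Smad6 above 6 come from fits whose WT arm was replicate 1 alone, with 0 counts of both genes, so they depend on the prior count and are neither folds nor a measured direction. In endothelial-like cells, YAP7d against WT, the Gm10709 term turned Acvrl1 to 0.22. In endothelial-like cells, YAP3d against WT, the replicate block turned Bmpr2 to 0.033, the Gm10709 term turned Acvrl1 to 0.069 and Eng to 0.0050 and thinning turned Bmp2 to -0.028 and Bmpr2 to 0.0036. There 1 Gm10709 state turned Acvrl1 to 0.061 and Eng to 0.0020. In endothelial-like cells, YAP7d against YAP3d, the Gm10709 term turned Acvrl1 to 0.15 and cells without mitosis UMIs turned Acvrl1 to 0.057. In macrophage-like cells, YAP7d against WT, the Gm10709 term turned Id1 to -0.24 and Smad6 to 0.67, Kupffer-like cells turned Id1 to -0.11 and the Kupffer-like cluster turned Acvrl1 to 1.14, Eng to 6.75, Id3 to 0.56 and Smad6 to 6.18. In macrophage-like cells, YAP3d against WT, DESeq2 turned Eng to 0.26, only the groups compared turned Eng to 0.081 and the replicate block turned Smad6 to -0.56. There the Gm10709 term turned Acvrl1 to 0.075, Eng to 0.49 and Bmpr2 to 0.24, the cell filter turned Bmpr2 to 0.11 and thinning turned Eng to 0.68 and Id1 to 0.067. There 1 Gm10709 state turned Acvrl1 to 0.11, Eng to 0.54 and Bmpr2 to 0.28, Kupffer-like cells turned Eng to 0.29 and the Kupffer-like cluster turned Acvrl1 to 1.48, Eng to 8.23 and Id1 to 1.83. In macrophage-like cells, YAP7d against YAP3d, the Gm10709 term turned Smad6 to 0.077, thinning turned Id1 to -0.039 and 1 Gm10709 state turned Smad6 to 0.080. There cells without 5 endothelial genes turned Acvrl1 to 0.20 and Id3 to 0.64 and the Kupffer-like cluster turned Id3 to 0.81. For YAP3d against WT in endothelial-like cells, leaving out 1 library gave Bmpr2 from -0.36 to 0.21, Bmp2 from -0.046 to 0.18, Acvrl1 from -0.35 to 0.26, Eng from -0.35 to 0.10, Id1 from -0.45 to 0.13 and Smad6 from -0.46 to 0.046. For YAP7d against WT in macrophage-like cells, leaving out 1 library gave Id1 from -0.36 to 0.99, Eng from -2.17 to 7.51 and Smad6 from -0.91 to 6.92. For YAP3d against WT in macrophage-like cells, leaving out 1 library gave Bmpr2 from -0.72 to 0.27, Smad6 from -0.16 to 7.67, Acvrl1 from -0.30 to 0.50, Eng from -0.42 to 9.27, Id1 from -0.70 to 0.57 and Id3 from -0.43 to 0.067. For YAP7d against YAP3d in macrophage-like cells, leaving out 1 library gave Id1 from -0.084 to 0.55. For YAP7d against WT in T-cell-like cells, leaving out 1 library gave Id3 from -0.18 to 0.53. For YAP7d against WT in B-cell-like cells, leaving out 1 library gave Id3 from -0.67 to 0.36. For YAP3d against WT in B-cell-like cells, leaving out 1 library gave Id3 from -0.29 to 0.54. For YAP7d against YAP3d in B-cell-like cells, leaving out 1 library gave Id3 from -0.61 to 0.059.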
